A study of Drosophila melanogaster with 4 samples.

Results

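The odd-skipped gene cluster of Drosophila melanogaster holds the genes drm, sob and odd on chromosome arm 2L. In white prepupae, 30 Groucho peaks lay in the 90 kb stretch taken for this cluster, out of 1948 peaks on 2L and 11165 in the whole list. The members were chosen by position alone, as every peak whose centre lay at chr2L:3530000-3620000 on FlyBase release 5. The window was itself picked with results of this list known, so its number of peaks and its high scores are given as a description, with no test. The file gives no gene names, and no annotation of release 5 was used here, so no peak was assigned to drm, sob or odd.

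Groucho is a co-repressor that has no DNA-binding domain of its own and is recruited to chromatin by sequence-specific repressors, among them Hairy and the Enhancer of split proteins. The odd-skipped family encodes zinc finger proteins that act in segmentation of the embryo, in gut development and in the formation of leg joints. Odd is a pair-rule repressor, and it is known to recruit Groucho through a short peptide motif. Sob is its close relative, named as sister of odd and bowl. Drm is a short zinc finger protein that binds Lines and so relieves the block that Lines puts on Bowl, the fourth protein of the family.

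In the RefSeq gene table, which is on release 6 and was used for gene order only, drm, sob and odd follow each other on 2L in that order. Between drm and sob the table lists 4 genes, of which 3 are long non-coding RNA genes and 1, CG43815, codes for a protein. Between sob and odd it lists 2 long non-coding RNA genes and no protein-coding gene. The fourth family gene, bowl, is also on 2L, with 38 listed genes between odd and bowl. No genome sequence of release 5 was at hand, so peak sequences are not analysed here.

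The series compared Groucho ChIP (2 libraries) with input DNA (2 libraries), all from white prepupae, the stage at the onset of metamorphosis, with no dissected tissue named. Both groups came from the strain labelled Y cn bw sp, whose genotype label lists y[1] with oc[R3.2], then Gr22b[1] and Gr22d[1], cn[1] together with CG33964[R4.2], bw[1] plus sp[1], LysC[1] and lab[R4.2], MstProx[1] as well as GstD5[1], and Rh6[1]. The ChIP used a rabbit polyclonal serum raised against a peptide of Groucho. The deposited data are 1 list of peaks, each with its position and the score of MACS, the peak caller. Libraries are not given apart in it, so neither a spread between replicates nor a test of ChIP against input can be given, and the read depth is unknown. The score is the authors', its scale is not stated, and it is used below only to rank and compare peaks within this list.

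The 30 peaks formed a dense stretch with peak-free sequence on both sides. They spanned 78.2 kb, from the first peak at 3533902 to the end of the last at 3612071, and covered 21.0 kb, or 23.3% of the window. The stretch before the first member had no peak for 28.6 kb, and 9.04% of the 1947 gaps between neighbouring peaks on 2L were longer. The stretch after the last member had no peak for 16.3 kb, and 16.5% of the gaps on 2L were longer. Inside the window, the median gap between neighbouring peaks was 1104 bp, against 2818 bp on 2L as a whole. Of the 29 gaps inside, 12 were shorter than 1 kb (41.4%, against 31.4% on 2L), and the shortest was 54 bp. Of the 30 members, 27 had at least 4 other peaks within 10 kb, where 43.9% of all 2L peaks did. Since the window was chosen with its density known, nothing is read from this difference.

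The edges of the window fell in these peak-free stretches. With the window 10 kb longer at each end it held 31 peaks and still 3 above 100, and with it 10 kb shorter at each end it held 27 peaks and 2 above 100, since the first member, 1 of the 3 high peaks, was then outside. The first and last members scored 174.70 and 14.23, and their centres lay at -46.3 and 31.4 kb from that of the highest peak. The nearest peaks outside it scored 14.23 (at 3504962 to 3505319) and 8.60 (at 3628361 to 3628581). A higher peak outside, with a score of 169.18, stood 52.0 kb after the highest member, at 3631685 to 3633420.

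**Figure D1:**
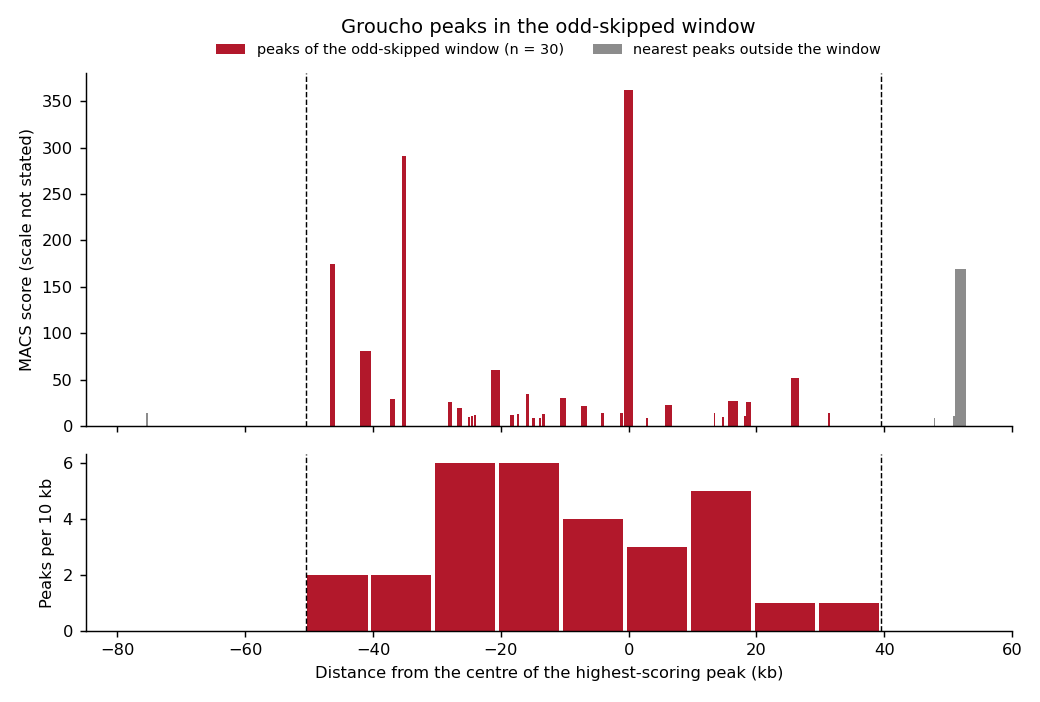
Groucho peaks in the odd-skipped window. Upper panel, MACS score of each peak (bars as wide as the peaks) against distance in kb from the centre of the highest-scoring peak, with the 30 members in red, the nearest peaks outside in grey and the window edges dashed. Lower panel, members per 10 kb. The 3 members above 100 stand at -46.3, -35.2 and 0 kb, while the bins with the most peaks, 6 each, lie between the second and the third of them.

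Gaps of 5 kb or more divided the members into 4 groups. The first group, at 3533902 to 3545757, had only 4 peaks over 11.9 kb, but none of them scored below the median of the whole list (18.38) and 2 scored above 100. The second, at 3552366 to 3587407, had 19 peaks over 35.0 kb and held the highest peak of the window. Of its 19 peaks, 11 scored below the median of the list, where 48.7% of all 2L peaks did. The third, at 3593855 to 3599784, had 5 peaks over 5.93 kb, none above 27.03, and was the most densely covered, at 54.2% of its length. The last, at 3606043 to 3612071, had 2 peaks, with scores of 52.08 and 14.23. The peak-free gaps between the groups were 6.61, 6.45 and 6.26 kb long, and 33.9%, 34.3% and 35.0% of the gaps on 2L were longer. A gap of 4.58 kb inside the last group fell just under 5 kb, so the division depends on that limit.

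Among bins of 10 kb, those with the most peaks were not those with the highest peaks. By group they did coincide, as the second group held both the most peaks and the highest one. The 2 bins of 10 kb with the most peaks, from 3550000 to 3570000, held 6 each, and their highest scores were 60.90 and 35.02. The 2 bins before them, from 3530000 to 3550000, held 2 peaks each, with highest scores of 174.70 and 290.66. The bin with the highest peak, from 3580000 to 3590000, held 3 peaks. Covered length was more even, between 17.8% and 34.8% in the first 7 bins and 12.0% and 2.48% in the last 2.

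Above a score of 100, the window held 3 peaks (10%), against 7.39% of all peaks on 2L. The highest, at 3579874 to 3581256, scored 362.36 over 1383 bp and ranked 3 on 2L and 10 in the whole list. The next, at 3545067 to 3545757, scored 290.66 over 691 bp and ranked 9 on 2L and 43 in the list. The lowest of the 3, at 3533902 to 3534636, scored 174.70 over 735 bp and ranked 42 on 2L and 234 in the list. These 3 peaks were neither adjacent nor evenly spaced, with 11.1 kb between the centres of the first pair along the arm and 35.2 kb between those of the second pair.

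The highest peak had only low-scoring neighbours. Its nearest peak, 242 bp before it, scored 14.23, and the next after it, 1950 bp away, scored 9.24. Of the 5 other peaks within 10 kb of it, the highest scored 23.33. On 2L, 141 peaks outside the window scored above 100, of which 126 had another peak within 10 kb, and the highest of those neighbours had a median score of 88.11 (quartiles 41.1 and 129). A lower neighbour than 23.33 was found for 14 of those 126 peaks (11.1%). A further 15 of the 141 had no other peak within 10 kb at all, and are not in that share. The other high members had a neighbour of 81.16 within 10 kb, close to that median. That neighbour, at 3538542 to 3540217, lay between them, and at 1676 bp it was the widest peak of the window.

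The remaining 27 members scored between 8.30 and 81.16, with a median of 14.23. Of all 30 members, 16 scored 20 or less, where 48.7% of all 2L peaks scored below 18.38, the median of the list. Below the peak of 81.16, the fifth and sixth of the window were those at 3559053 to 3560427 (60.90) and 3606043 to 3607239 (52.08). The seventh to the tenth scored between 27.03 and 35.02, at 3564478 to 3565031, 3569851 to 3570763, 3543189 to 3544058 and 3596175 to 3597631. The last of these was the second widest of the window, at 1457 bp. Over all 30 members the median score was 16.94, and 15 of them (50%) were below the median of the list, where 48.7% of all 2L peaks were. By this count the members were like other peaks of the arm. No member was wider than 2 kb, a width that 2.26% of 2L peaks passed, but the median width was 572.5 bp, against 448 bp for the 1918 other peaks of 2L.

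Score and width rise together across the list, so each member was set beside all peaks of the list whose width was within 10% of its own. Most members scored low for their width, while the 3 highest, named by their score, also scored high for it. Of the 30, 23 were below the middle (50%) of their like-width peaks, where 48.2% of all 2L peaks were. Another 4 were between 50% and 90%, and 3 were above 90%. Those 3 were 10% of the members, the same share as on 2L, where 10.1% of all peaks were above 90%. The median member scored above 29.1% of its like-width peaks, against 52.2% for the other peaks on 2L. The peak at 3545067 was exceeded by 4 of 1020 like-width peaks, which had a median score of 29.17, and of the 42 peaks of the list that scored at least as high, 1 was narrower. The peak at 3579874 was exceeded by 1 of 391 like-width peaks, whose median score was 62.04. The peak at 3533902 was exceeded by 19 of 946, whose median score was 32.72.

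By group, 16 of 19 members of the long second group were below the middle of their like-width peaks, and 4 of 5 of the third. Among all 2L peaks the share was 48.2%. The second group held 19 of the 30 members, so its large part of the low-for-width members largely reflects its size. A low-for-width member of the third group was the 1457 bp peak at 3596175. Its score of 27.03 was above only 9.80% of its like-width peaks, which had a median of 69.13. In the first group 2 of 4 members were below the middle, and in the last 1 of 2. Across the 30 members score still rose with width (Spearman's rho = 0.76, Pearson's r = 0.40), and on the other 1918 peaks of 2L these values were 0.79 and 0.68. These correlations are over peaks that share the same libraries and caller, and are given as a description.

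**Figure D2:**
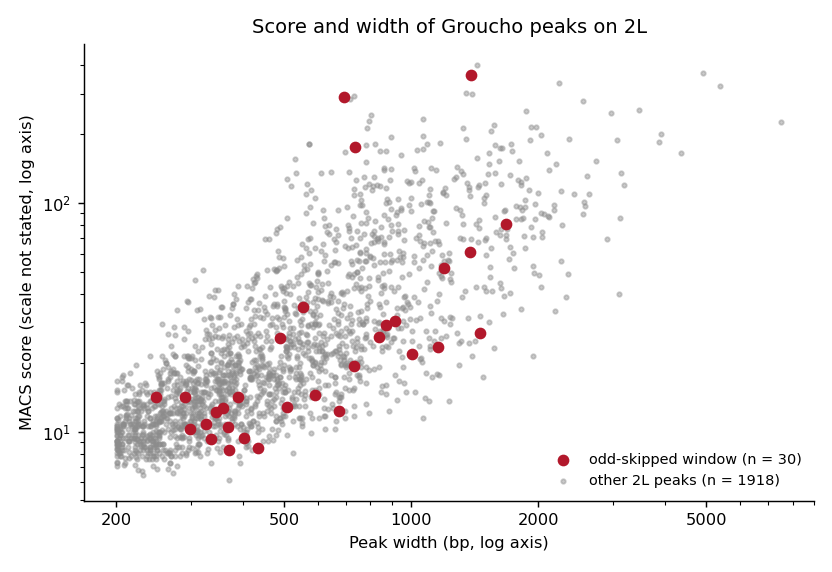
Width (bp, log axis) and MACS score (log axis) of the 30 peaks of the odd-skipped window in red and of the other 1918 peaks on 2L in grey. The 3 members above 100 lie in the upper part of the cloud for their width, and 23 of the 30 lie below the middle of peaks of like width.

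Among the 248 windows of 90 kb into which 2L was divided in step with this one, the odd-skipped window ranked 4 by number of peaks, with 30. The median window held 7 peaks (quartiles 2 and 11), 25 windows held none, and 244 (98.4%) held fewer than 30. Windows with at least 30 peaks made up 1.61% of the arm's windows. The odd-skipped window also ranked 4 by covered length, with 23.3%, against a median of 4.00% and a maximum of 38.3%. By summed score, a sum that depends on the unstated scale, it ranked 3, with 1433.92 against a median of 202.5, and 98.8% of the windows were lower. By its highest score it ranked 3 of the 223 windows with a peak, with 362.36, and the highest of any window was 401.26. At least 3 peaks above 100 were found in 5.65% of windows, and 5 windows had more than 3.

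The windows on either side were not dense. That before it, at 3440000 to 3530000, held 9 peaks covering 4.08%, with a highest score of 80.53. That after it, at 3620000 to 3710000, held 8 peaks covering 5.56%, with a highest score of 169.18. Both were close to the median window of the arm in number and coverage. Peaks that scored low for their width were common there too. In the window before, 7 of 9 were below the middle of their like-width peaks, and in the window after 6 of 8 were. Among all 2L peaks the share was 48.2%. The median peaks of these windows exceeded 14.4% and 36.2% of their like-width peaks, against 29.1% in the odd-skipped window.

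**Figure D3:**
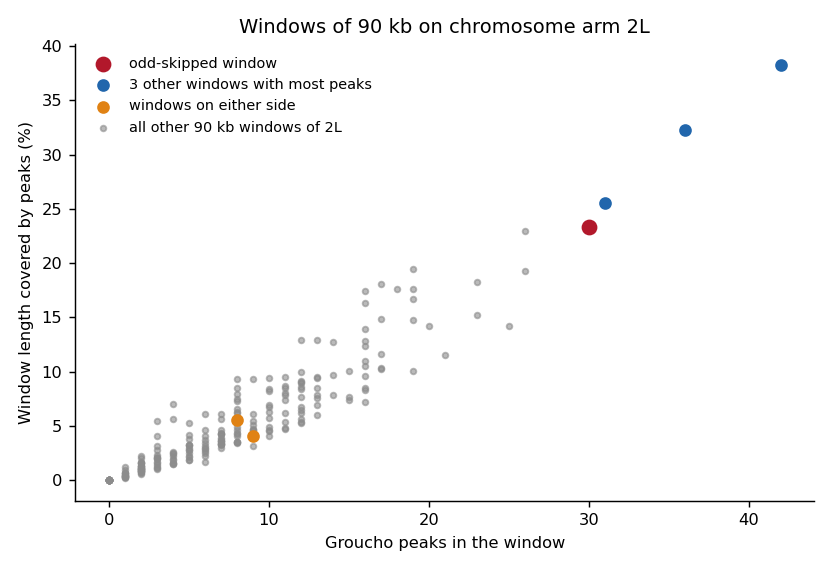
Number of Groucho peaks (horizontal axis) and percent of length covered by peaks (vertical axis) in windows of 90 kb on 2L. The odd-skipped window (red, 30 peaks, 23.3%) ranks 4 on both axes, below the 3 windows with more peaks (blue) and far above the windows on either side (orange, 9 and 8 peaks).

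The 3 windows with more peaks differed from the odd-skipped window in how scores were distributed. The window at 14510000 to 14600000 held 42 peaks, with a highest score of 189.97 and 6 peaks above 100. The window at 470000 to 560000 held 36 peaks, with a highest score of 302.67 and 5 above 100. The window at 14420000 to 14510000 held 31 peaks, with a highest score of 401.26 and 1 above 100, and it adjoins the first. The median score of the odd-skipped window, 16.94, was below theirs, at 26.19, 29.40 and 22.15. Its median width, 572.5 bp, was equal to or below theirs, at 668, 572.5 and 600 bp. The median peak of the odd-skipped window exceeded 29.1% of its like-width peaks, against 57.4%, 52.1% and 51.2% in these windows. In the windows next in number of peaks, with 23 to 26, this value was 51.1%, 32.5%, 53.3%, 56.7% and 26.0%. The last of these, at 19100000 to 19190000, was thus lower than the odd-skipped window and also had 3 peaks above 100.

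The 29.1% of the odd-skipped window stood against a median of 51.8% (quartiles 40.3% and 58.7%) over the 82 windows of 2L with at least 10 peaks, of which 5 were lower. In the same windows the median score was higher than in the odd-skipped window in 56, and the median width was higher in 16. The odd-skipped window therefore ranked 3 for its highest peak and below the median of these windows for the score of its typical peak. No test of these differences was made, since the window was chosen with its peaks in view and the peaks of a window share their libraries.

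**Figure D4:**
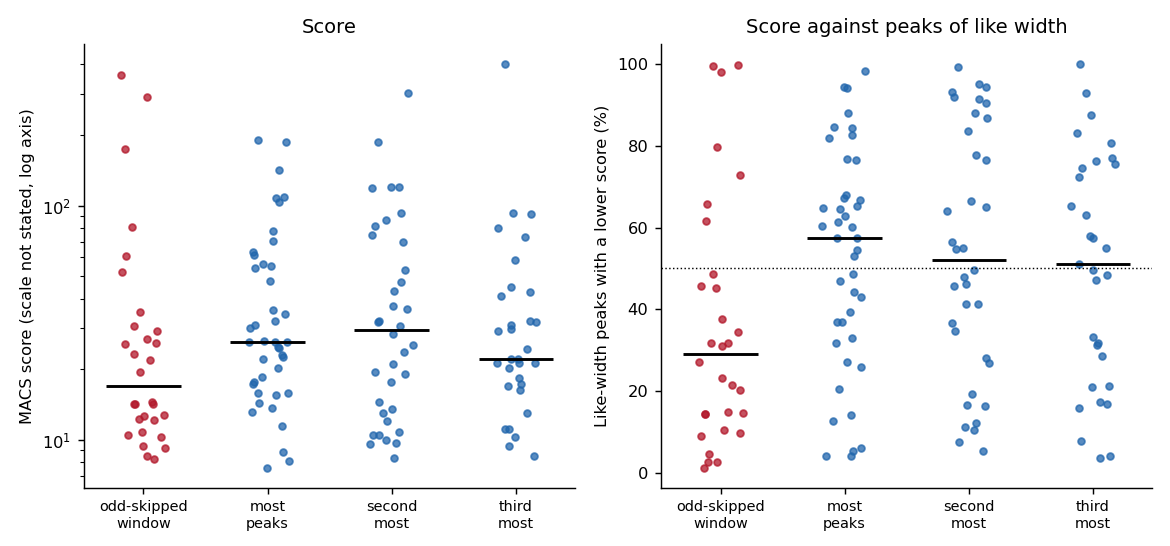
Peaks of the odd-skipped window (red, 30 peaks) and of the 3 other 90 kb windows of 2L with the most peaks (blue, 42, 36 and 31 peaks), with black lines at the medians. Left, MACS score on a log axis, with medians of 16.94, 26.19, 29.40 and 22.15; right, percent of like-width peaks of the list with a lower score, with medians of 29.1%, 57.4%, 52.1% and 51.2%, and a dotted line at 50%.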

How the data were processed

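Groucho ChIP (2 libraries) and input DNA (2 libraries) were grouped by their titles. The deposited file is 1 list of peaks with the score of the authors' caller, on FlyBase release 5 with MACS as the source, per the file headers. BDGP5 is the build in the submitters' processing notes, which list the tools BWA, MACS2 and CASAVA, the last in versions 1.7.0.2 and 1.7.0.3. For the threshold, the scale of the score and any pooling of libraries, nothing is stated.

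Peaks were assigned to windows by their centres, and windows of 90 kb were laid from 3530000 in both directions up to the end of the last peak on 2L. Peaks less than 5 kb apart formed a group. Like-width peaks were all peaks of the list with a width within 10%. Described by rule were the first, last, 10 highest and 3 widest peaks, the flanking peaks, the 3 longest gaps, the 3 other windows with the most peaks and the 2 adjacent windows. The members, lists and measures were chosen with earlier results of these data known. The steps were tested on 20 simulated lists. Python 3.11.15, numpy 2.4.6, pandas 2.3.3, scipy 1.17.1 and matplotlib 3.10.9 were used. No test was run, because no value per library was at hand.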

Additional observations from a re-analysis of the deposited data

How the results depend on the processing

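Of 41 alternatives, 9 moved the value beyond the limits set (1.5 times for a count, a 95% binomial interval otherwise) and 32 did not. For the covered share, the interval took each base as a unit, although bases lie together in peaks. That interval is therefore too narrow, and a move beyond it means little. The intervals for the median score and the shares of windows took peaks or windows as independent units, although all come from 1 list. They serve here as limits for description only. Among the 32, the number of peaks above 100 was 2 in place of 3 with the window 10 kb shorter at each end, where the 2 were among 27 peaks, a share like the 7.39% of all 2L peaks, and with peaks under 5 kb apart joined. With only peaks at or above the median score of the list, the window held 15 peaks with a median score of 30.48, and with peaks under 1 kb apart joined it held 18 with a median of 28.1. With peaks under 5 kb apart joined it held 4 with a median of 171.37, and 58.1% of the 2L windows then held fewer, since joining leaves few units in a dense window. With peaks under 1 kb apart joined, 99.2% of the 2L windows held fewer. The place by number of peaks thus held for peaks as called and with the 1 kb joining, but not with the 5 kb joining. The covered share was 26.2% with the window 10 kb shorter at each end and 19.3% with it 10 kb longer, which changes the length it is divided by. The shares of windows with fewer peaks, fewer covered bases or a lower summed score were between 97.6% and 99.2% in the other settings. The number of members below the middle of their like-width peaks was 22 or 23 with widths within 5% or 20% or with peaks of 2L only, settings chosen after seeing the data. No paired analysis was possible because libraries are not given apart in the list, and leaving out a replicate could not be run for the same reason. Read depth is unknown, so a gap is a stretch where no peak was called.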

Other observations

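The second window of 90 kb after the odd-skipped window, at 3710000 to 3800000, was also rich in Groucho peaks. It held 16 peaks covering 12.8% of its length, and 4 of them scored above 100, 1 more than in the odd-skipped window. Its highest score, 332.78, was the fourth-highest among the windows of 2L. Of its 16 peaks, 9 were below the middle of their like-width peaks, near the 48.2% of all 2L peaks that were, and its median peak exceeded 39.7% of its like-width peaks, close to the lower quartile (40.3%) of the 2L windows with at least 10 peaks. The window in between, at 3620000 to 3710000, held 8 peaks, 1 of them above 100.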
